A study of Mus musculus with 24 samples.

Results

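The 8 genes described here, Ccl2, Ccl3, Ccl4, Ccl5, Ccl6, Ccl7, Ccl9 and Ccl12, code for CC chemokines that microglia transcribe. They were taken by symbol from a count table of 49315 mouse genes, and 8 of 8 were among the 17579 genes that passed a filter on low counts. The table holds 24 bulk RNA-seq libraries of adult mouse microglia, the resident macrophages of the brain, sorted by flow cytometry for intermediate CD45 and for CD11b. The libraries form 8 groups of 3 biological replicates, 1 for each combination of 4 states and 2 genotypes. In the genotype labelled Cre+, tamoxifen switches on a recombinase (creERT2) expressed from Cx3cr1, a gene active in microglia and in other macrophages, to delete Dicer1. The genotype labelled Cre- is the wild type. Dicer1 codes for the enzyme that cuts mature microRNAs out of their hairpin precursors. Every group had received tamoxifen, Cre- mice included. The naive groups had tamoxifen alone. The demyelination groups had cuprizone, a copper chelator that kills oligodendrocytes, for 6 weeks, with tamoxifen at 4 to 5 weeks (counted from a point the labels do not give). Both remyelination states had 6 weeks of cuprizone and then 6 weeks of normal diet. In the state named start the tamoxifen was given at 4 to 5 weeks, and in the state named peak it was given in week 5 of cuprizone. The difference between Cre+ and Cre- mice includes the recombinase itself and a lower Cx3cr1 level as well as Dicer1, and these cannot be told apart here.

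CC chemokines are small secreted proteins that draw leukocytes along a gradient through G-protein-coupled receptors. Ccl3 and Ccl4, the macrophage inflammatory proteins 1 alpha and 1 beta, attract macrophages and T cells, Ccl3 through Ccr1 among others. Ccl5 uses Ccr1 and Ccr3, and Ccl6 and Ccl9 act through Ccr1. Ccl2, Ccl7 and Ccl12 are monocyte chemoattractant proteins that recruit monocytes from the blood through Ccr2. Transcription of many of these genes is driven by NF-kB, and their messages are often short-lived because of AU-rich stretches in the 3' untranslated region.

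The 8 genes lie on mouse chromosome 11 (GRCm38) in 2 clusters. The monocyte attractants form the first, all on the plus strand: Ccl2 (ENSMUSG00000035385) at 82035571 to 82037453, Ccl7 (ENSMUSG00000035373) at 82045712 to 82047525, and Ccl12 (ENSMUSG00000035352) at 82101845 to 82103400. The second holds, on the minus strand, Ccl5 (ENSMUSG00000035042) at 83525778 to 83530518, Ccl9 (ENSMUSG00000019122) at 83572919 to 83578636, Ccl6 (ENSMUSG00000018927) at 83587882 to 83593087 and Ccl3 (ENSMUSG00000000982) at 83647844 to 83649355. Ccl4 (ENSMUSG00000018930) lies beside Ccl3, at 83662584 to 83664683 on the plus strand. None of the 8 shares exonic bases with another annotated gene. All are short, with 537 (Ccl12) to 3045 (Ccl9) exonic bases against a median of 4336 over 11812 genes.

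RefSeq promoter sequences were found for 4 of the 8 genes, and the 100 bases before the RefSeq start site (GRCm38.p6) are shown because they cover both the genes that fell and those that rose in Cre+ microglia. Capitals mark matches, on either strand, to the letters of a kB-like site (GGANNTTCC), an AP-1 site (TGANTCA), a C/EBP site (TTGCNNCAA), an interferon-response core (GAAANNGAA) or a TATA box (TATAAA). Ccl3 lies at chr11:83649379-83649478, Ccl6 at chr11:83593088-83593187 and Ccl9 at chr11:83578637-83578736, all on the minus strand, and Ccl12 at chr11:82101745-82101844 on the plus strand.
Ccl3: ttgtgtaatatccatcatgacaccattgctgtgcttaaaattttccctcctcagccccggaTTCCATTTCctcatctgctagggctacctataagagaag
Ccl6: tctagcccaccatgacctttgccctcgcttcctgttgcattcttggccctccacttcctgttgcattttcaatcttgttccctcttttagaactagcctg
Ccl9: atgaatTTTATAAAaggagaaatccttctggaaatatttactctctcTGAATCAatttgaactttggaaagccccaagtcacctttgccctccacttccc
Ccl12: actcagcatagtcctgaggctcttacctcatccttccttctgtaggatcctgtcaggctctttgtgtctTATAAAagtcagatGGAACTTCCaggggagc
The Ccl12 window held a TATA box starting 31 bases and a kB-like match starting 17 bases before the start site. The Ccl9 window held an AP-1 match 53 bases before the start and overlapping TATA boxes, on opposite strands, 94 and 92 bases before it. The Ccl3 window held 1 interferon-response core, 39 bases before the start on the opposite strand, and the Ccl6 window none of the 5 motifs. Among 32851 RefSeq promoter windows of 300 bases, 4.26% held the kB-like letters, 7.81% the AP-1, 2.08% the C/EBP, 8.56% the interferon-response and 13.6% the TATA letters. Those windows are longer than the 100 bases shown. Over the full 300 bases, the only further match was a TATA box of Ccl9, 224 bases before the start on the opposite strand.

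Dicer1 makes microRNAs, so microRNAs known from microglia and macrophages were looked up. Matches to their seeds (bases 2 to 8) were sought in the 3' untranslated regions, and those in Ccl2, Ccl3 and Ccl4 are shown. Capitals mark the seed in the mature RefSeq sequence, and the complementary bases in the target.
miR-21a-5p: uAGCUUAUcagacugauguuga
Ccl3, chr11:83648141-83648162, minus strand: tagctccatctcctATAAGCTg
miR-223-3p: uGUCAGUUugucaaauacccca
Ccl3, chr11:83647904-83647925, minus strand: atgacaaagtcatgAACTGACa
miR-27a-3p: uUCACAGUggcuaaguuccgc
Ccl2, chr11:82037179-82037196, plus strand: tgtgactcggACTGTGAt
Ccl4, chr11:83664618-83664639, plus strand: ctattgtggatatgACTGTGAa
Such matches occurred in 7.89% (miR-21a), 9.47% (miR-223) and 17.8% (miR-27a) of 13404 genes. These had passed the filter on low counts and had an annotated 3' untranslated region, with the very shortest regions left out. Of 24 microRNAs looked for, miR-124-3p and miR-150-5p were missing from the RefSeq sequences used, so their seeds were not searched. The lookup of the other 22 gave no match for Ccl5, Ccl6 or Ccl12. Ccl7 and Ccl9 held matches that are not shown, those of Ccl9 including miR-21a-5p and miR-27a-3p. A match is a run of letters and not a measured site, and microRNAs themselves were not measured in these libraries. The AU-rich pentamer ATTTA stood 5 times in the 167 bases of the Ccl12 region (29.9 per kb), 5 times in the 409 bases of Ccl3 (12.2 per kb) and 2 times in the 302 bases of Ccl4 (6.62 per kb), against a median of 1.31 per kb over the 13404 genes. Ccl7 had 4.6, Ccl6 4.24, Ccl2 3.64 and Ccl9 2.03 pentamers per kb, and Ccl5 had 0. As many per kb as Ccl12 or more were found in 0.0298% of genes, as many as Ccl3 in 0.358% and as many as Ccl4 in 2.79%.

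The libraries held 19476284 to 44526670 counted reads in the naive and 21865238 to 32708382 in the demyelination groups, but 8873275 to 12560540 in the remyelination groups, whose titles also follow other naming schemes, 1 for start and another for peak, so that naming set and state cannot be told apart. The 12 microglia markers were detected in every library, with summed CPM (read counts per unit of library size, scaled by the trimmed mean of M values) of 39760 to 87830. Dicer1 does not check the labels, because the counts cover the whole gene and not the deleted part alone. It stood at 18.6, 11.1 and 12.1 CPM in naive Cre- and at 21.8, 22.1 and 24.3 CPM in naive Cre+ libraries, and at 23.1, 22.7 and 15.2 against 11.6, 15.7 and 17.5 CPM in demyelination, and its differences in the remyelination states were -0.10 (start) and -0.06 (peak) on the log2 scale. Cx3cr1, which carries the recombinase, was lower in every Cre+ library than in every Cre- library of its state, and 3 Cre+ libraries stood far apart: naive replicate 1 at 227 CPM beside 4432 and 4571, and demyelination replicates 1 and 3 at 104 and 89.6 beside 2312. The tests that rest on these libraries are given with and without them, and the scores and ratios by library. In bulk samples, fewer cells that express a gene and less RNA per cell cannot be told apart.

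Per kilobase of exon, Ccl4 was the most abundant and Ccl3 the second most abundant of the 8 in all 8 groups. In naive Cre- microglia the levels in CPM per kilobase were 762 for Ccl4, 696 for Ccl3, 205 for Ccl12, 167 for Ccl6, 74.2 for Ccl9, 24.5 for Ccl2, 2.36 for Ccl7 and 0.940 for Ccl5 (means, n = 3). The ranges of Ccl4 and Ccl3 overlapped there, and so did those of Ccl12 and Ccl6. In naive Cre+ microglia the top of the order drew together, at 245 (Ccl4), 217 (Ccl3) and 173 (Ccl12) CPM per kilobase, though these ranges did not overlap. In demyelination Ccl6 took the third place, at 1025 CPM per kilobase in Cre- and 1243 in Cre+ libraries, and no neighbours in the Cre- order overlapped. In the Cre+ order Ccl6 (1151 to 1423) overlapped Ccl12 (653 to 1187). Ccl7, at 7.88 and 8.60 CPM per kilobase, was the lowest of the 8 in both demyelination groups.

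**Figure D1:**
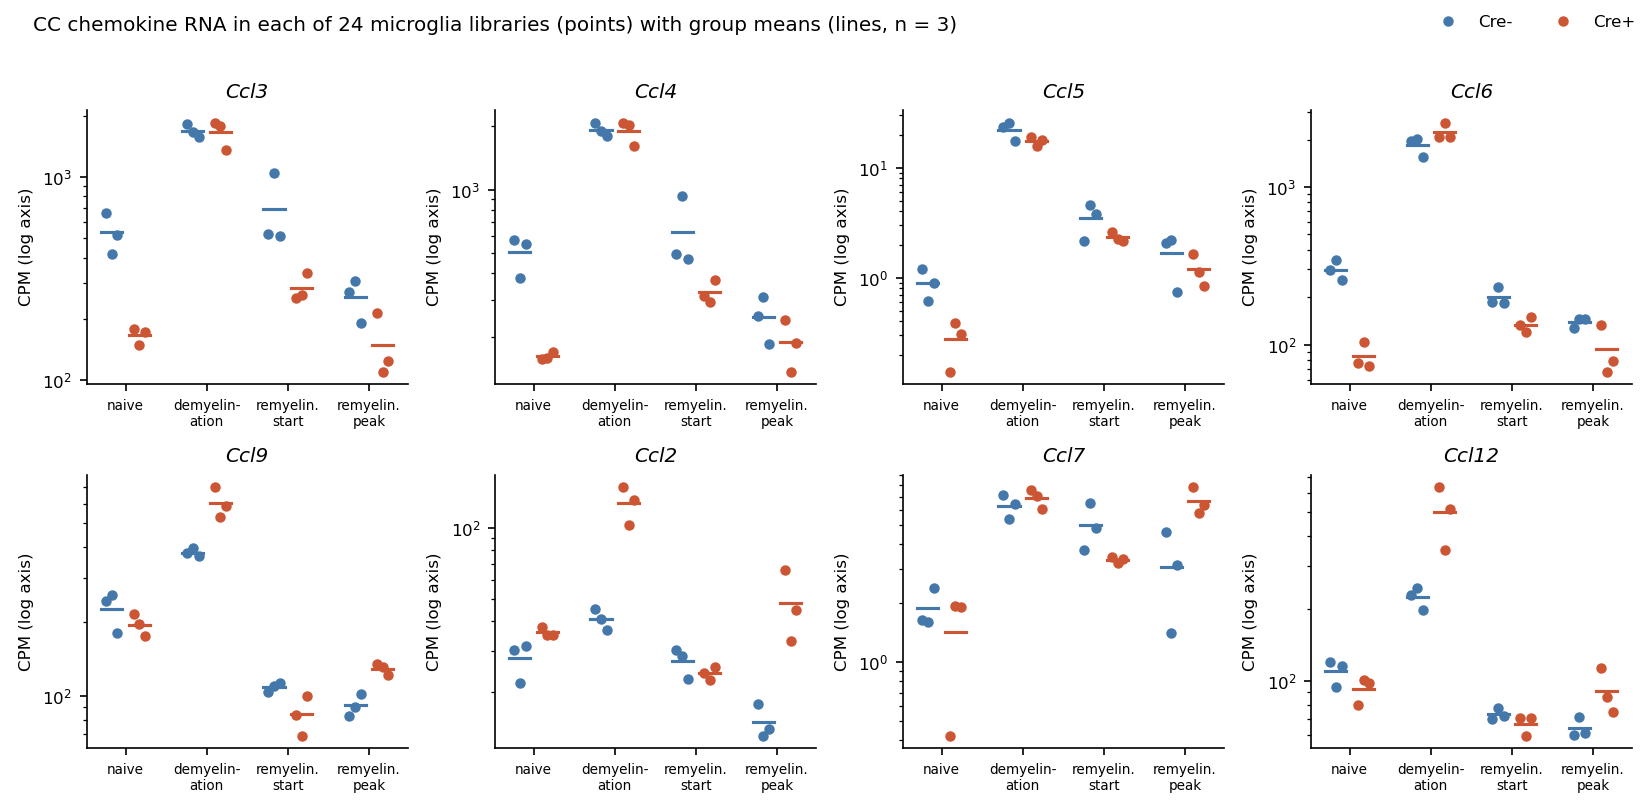
CPM of each of the 8 chemokines (log axis) in every library, by state on the horizontal axis and by genotype in colour; points are libraries and short bars are group means. Ccl3, Ccl4, Ccl5 and Ccl6 sit lower in naive Cre+ than in naive Cre- libraries, and Ccl2 sits higher in Cre+ libraries in demyelination and remyelination peak.

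The first comparison was between the genotypes in undamaged brain. In the naive state, Ccl3, Ccl4, Ccl5 and Ccl6 were 2.87- to 3.53-fold lower in Cre+ microglia, whereas the monocyte attractants and Ccl9 passed the threshold in neither direction. Thus 4 of 8 members were called lower and 0 higher by edgeR's quasi-likelihood test with Benjamini-Hochberg adjustment over all genes, where 13.7% of genes were called lower and 14.7% higher. The members' median difference was -0.94 on the log2 scale, against -0.01 over all genes tested.

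Ccl3 stood at 665, 416 and 519 CPM in the naive Cre- libraries and at 179, 148 and 172 CPM in the naive Cre+ libraries. All 3 Cre+ libraries were low and the groups did not overlap. The fitted difference was -1.68 ± 0.29 (log2, SE, n = 3 per group; edgeR adjusted p = 0.000322), 3.21-fold lower. Ccl4, its neighbour, followed it, with 578, 379 and 552 CPM in Cre- and 157, 159 and 169 CPM in Cre+ libraries. Its groups were likewise apart, with a difference of -1.64 ± 0.25 (edgeR adjusted p = 0.000115).

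Ccl6 is a Ccr1 ligand made constitutively by macrophages. It showed 296, 344 and 259 CPM in naive Cre- against 77.0, 104 and 73.0 CPM in naive Cre+ libraries. No library crossed over, and the difference of -1.82 ± 0.20 (edgeR adjusted p = 2.43e-06) was the largest in size among the 8 members in this state, though within 1 SE of that of Ccl3. Ccl5, best known as a product of T cells, was barely present, with 22, 23 and 27 reads in Cre- and 3, 16 and 8 reads in Cre+ libraries. Scaled to depth these were 1.21, 0.610 and 0.891 CPM against 0.140, 0.387 and 0.308 CPM, a difference of -1.52 ± 0.41 (edgeR adjusted p = 0.0055). The 11 T, NK and B cell markers summed to 0.396 to 0.823 CPM in naive Cre- and 0.0936 to 0.387 CPM in naive Cre+ libraries, without overlap, and 4 of them were at 0 in all libraries of each group. Their part in the Ccl5 difference was not tested. Ccl9, another Ccr1 ligand, lay at 242, 256 and 180 CPM in Cre- and 215, 196 and 175 CPM in Cre+ libraries. Here the groups overlapped, and the difference of -0.21 ± 0.13 did not pass (edgeR adjusted p = 0.225).

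None of the monocyte attractants was called in the naive state. Ccl2 had 30.3, 21.8 and 31.5 CPM in Cre- and 38.0, 35.1 and 35.0 CPM in Cre+ libraries, so that every Cre+ value was above every Cre- value. That difference of 0.37 ± 0.19 missed the threshold (edgeR adjusted p = 0.154). It passed with the replicate number as a block (0.39, adjusted p = 0.0343), with no filter on low counts (0.36, adjusted p = 0.0247) and with a correction for GC content and transcript length (0.60, adjusted p = 0.0316). Ccl12 ranged from 94.7 to 120 CPM in Cre- and from 79.3 to 101 CPM in Cre+ libraries, with overlap (-0.24 ± 0.17, adjusted p = 0.303). Ccl7 was near 2 CPM or below in most naive libraries (1.65, 1.62 and 2.41 in Cre-, 0.421, 1.93 and 1.92 in Cre+), and its difference was -0.37 ± 0.37 (adjusted p = 0.499). Across all genes, the naive genotype difference rose with exon length (Spearman 0.276 over 11812 genes, a description), and the members are short. With GC content and length corrected, Ccl3 (-1.44), Ccl4 (-1.41), Ccl5 (-1.29) and Ccl6 (-1.62) were still called. They were also called without the low-Cx3cr1 library, at -1.77, -1.65, -1.31 and -1.79. Summed markers of border-associated macrophages (9 genes) were 21.3 to 28.7 CPM in naive Cre- and 15.5 to 19.8 CPM in naive Cre+ libraries, and those of astrocytes (6 genes) 424 to 546 against 284 to 330 CPM. Monocyte (38.0 to 83.6 against 24.4 to 79.9 CPM) and neutrophil markers (1049 to 1235 against 1087 to 1483 CPM) overlapped. Microglia markers were 81640 to 87830 against 72990 to 74130 CPM. That sum includes Cx3cr1, which carries the recombinase and was at 9273 to 12250 against 227 to 4571 CPM. No marker of these lists was at 0 in all libraries of a group. Their part in the naive result was not tested.

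**Figure D2:**
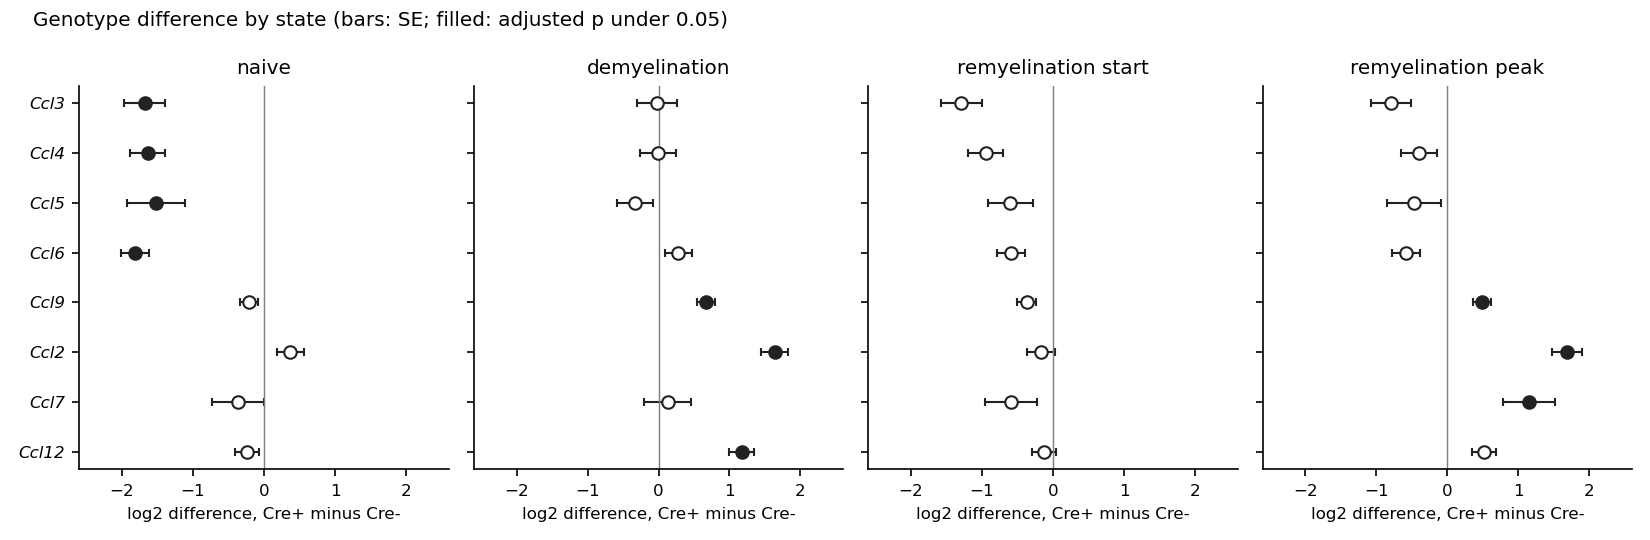
Fitted log2 difference of Cre+ minus Cre- microglia for each member in each of the 4 states, with bars of 1 SE and filled points where the adjusted p is under 0.05. In the naive panel 4 members lie left of 0 and are filled, 3 lie right of 0 and are filled in the demyelination and the remyelination peak panels, and none is filled in the start panel.

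In demyelination, the genotype difference lay in other genes. Ccl2, Ccl12 and Ccl9 were 3.12-, 2.25- and 1.59-fold higher in Cre+ microglia, and Ccl3 and Ccl4 differed by -0.02 and -0.01 on the log2 scale. So 3 of 8 members were called higher and 0 lower, against 5.69% of all genes called higher and 3.48% lower, and the members' median was 0.20 (log2) against -0.01 over all genes.

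Ccl2, the main ligand of Ccr2, stood at 45.3, 40.9 and 36.7 CPM in demyelination Cre- and at 149, 103 and 132 CPM in demyelination Cre+ libraries. The lowest Cre+ library was above the highest Cre- library, and the difference was 1.64 ± 0.19 (log2, SE, n = 3 per group; edgeR adjusted p = 8.29e-05). Ccl12, another Ccr2 ligand, had 227, 244 and 197 CPM in Cre- and 637, 351 and 518 CPM in Cre+ libraries. Again the groups were apart, by 1.17 ± 0.17 (edgeR adjusted p = 0.000299). Ccl7, the remaining Ccr2 ligand, did not follow them, with 7.13, 5.37 and 6.43 against 7.59, 7.03 and 6.05 CPM and a difference of 0.13 ± 0.33 (edgeR adjusted p = 0.87).

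Among the Ccr1 ligands, Ccl9 rose from 378, 396 and 370 CPM in Cre- to 702, 533 and 588 CPM in Cre+ libraries. The groups did not overlap, with a difference of 0.67 ± 0.13 (edgeR adjusted p = 0.0019). Ccl6 had 1944, 2024 and 1552 CPM against 2074, 2555 and 2066 CPM. Its Cre+ libraries were all higher, but the difference of 0.28 ± 0.19 missed the threshold (edgeR adjusted p = 0.427).
Ccl3 measured 1824, 1667 and 1566 CPM in Cre- and 1847, 1784 and 1363 CPM in Cre+ libraries. These overlapped fully, at -0.02 ± 0.28 (adjusted p = 0.982), and Ccl4 did the same with 2077, 1891 and 1794 against 2076, 2029 and 1617 CPM (-0.01 ± 0.25, adjusted p = 0.988). Ccl5 had 23.4, 25.6 and 17.3 against 18.8, 15.9 and 17.9 CPM (-0.33 ± 0.25, adjusted p = 0.467).

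Without the low-Cx3cr1 libraries, the demyelination comparison kept a single Cre+ library, assumed to vary like the others, and the genes called fell from 1612 to 81. Ccl2 was still called (1.37, edgeR adjusted p = 0.0131), while Ccl12 (0.70, adjusted p = 0.0612) and Ccl9 (0.53, adjusted p = 0.286) were not. Summed neutrophil markers (8 genes) were 2276, 2024 and 1913 CPM in the demyelination Cre+ and 907, 1284 and 1548 CPM in the Cre- libraries, with no marker called. Summed monocyte markers (9 genes) were 774, 471 and 539 CPM in Cre+ and 221, 359 and 308 CPM in Cre- libraries. Of these, Fn1 was called higher (1.68), and Ccr2, Itga4 (-1.29) and Vcan (-1.88) lower, and the median difference of the 9 was -1.22 (log2). The 9 border-associated macrophage markers summed to 116 to 128 CPM in the Cre+ group against 176 to 226 CPM. The 11 T, NK and B cell markers summed to at most 7.14 CPM in any library, and Cd3e, the defining T cell gene among them, reached at most 0.503 CPM. The part of other cells in the chemokine differences was not tested.

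At remyelination start, no member passed the test, and 0.0341% of genes were called higher and 0% lower (6 genes in all by edgeR, 45 by DESeq2). Without adjustment, 1657 genes and 4 of the members had p under 0.05. The members' median was -0.59 on the log2 scale against -0.04 over all genes. Ccl3 had 524, 1049 and 512 CPM in Cre- and 253, 261 and 336 CPM in Cre+ libraries. The Cre+ libraries were all lower, at -1.29 ± 0.29 (unadjusted p = 0.000281, edgeR adjusted p = 0.171), and DESeq2 called the gene (-1.30, adjusted p = 0.0135).
Ccl4 was alike, with 494, 928 and 469 against 312, 291 and 373 CPM (-0.95 ± 0.25, edgeR adjusted p = 0.241), and its groups were again apart. One library weighs on both genes: Cre- replicate 2 held the highest Ccl3 and Ccl4 of its group together with the highest summed neutrophil (4480 CPM) and monocyte markers (468 CPM) of this state. Without it, the differences were -0.87 for Ccl3 (adjusted p = 0.882) and -0.57 for Ccl4. Ccl6 had 188, 233 and 185 against 133, 120 and 149 CPM (-0.59). Ccl7 had 3.73, 6.49 and 4.87 against 3.44, 3.22 and 3.36 CPM (-0.59). Ccl9 had 104, 110 and 113 against 83.9, 69.0 and 99.9 CPM (-0.37). None of these was called, with adjusted p of 0.324, 0.65 and 0.339. Ccl2 (-0.17), Ccl12 (-0.13) and Ccl5 (-0.60) overlapped between the genotypes. The share of all genes whose groups did not overlap was not counted, so overlap is given as description only.

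At remyelination peak, Ccl2, Ccl7 and Ccl9 were higher in Cre+ microglia, by 3.22-, 2.21- and 1.41-fold. These 3 members of 8 were called higher and 0 lower, against 6.99% and 4.02% of all genes, and the members' median was 0.04 against -0.01 over all genes. Ccl2 had 13.1 to 17.9 CPM in the 3 Cre- libraries and 66.3, 33.0 and 44.8 CPM in Cre+ libraries. The groups were apart, at 1.69 ± 0.21 (log2, SE, n = 3 per group; edgeR adjusted p = 2.56e-05). Ccl9 had 83.2, 90.4 and 102 CPM against 135, 131 and 122 CPM, without overlap (0.49 ± 0.13, adjusted p = 0.0155).

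Ccl7, the least abundant of the monocyte attractants, had 4.64, 1.41 and 3.13 CPM in Cre- and 7.85, 5.76 and 6.39 CPM in Cre+ libraries of this state. The groups did not overlap, but its call (1.15 ± 0.37, edgeR adjusted p = 0.0439) was lost without any 1 of 5 of the 6 libraries (all but Cre- replicate 1), with adjusted p of 0.0634 to 0.244. It was also lost with upper-quartile scaling (adjusted p = 0.0583) and with only the 2 groups fitted (adjusted p = 0.0578). Ccl12 was higher in every Cre+ library (113, 86.0 and 74.7 against 59.8, 70.8 and 60.8 CPM) but missed the threshold (0.51 ± 0.17, adjusted p = 0.0586). It passed with DESeq2 (adjusted p = 0.0334), no filter (0.000583) and only the groups compared (0.0433).
Ccl3 had 270, 308 and 190 CPM in Cre- and 212, 110 and 124 CPM in Cre+ libraries, and Ccl4 251, 309 and 185 against 240, 137 and 187 CPM. Both overlapped between the genotypes, at -0.79 ± 0.28 (adjusted p = 0.0873) and -0.40 ± 0.25 (adjusted p = 0.339). Ccl6, with 127, 145 and 146 against 134, 67.5 and 78.5 CPM, overlapped through a single library, Cre+ replicate 1 (-0.58 ± 0.20, adjusted p = 0.0661). It was called lower with the replicate block (adjusted p = 0.0479), DESeq2 (0.0229), upper-quartile scaling (0.0429) and the GC content and length correction (0.0239).
That replicate had the highest value of its group for all 8 members, and without it Ccl3 (-1.13, adjusted p = 0.0181) and Ccl6 (-0.93, adjusted p = 0.000436) were called lower and Ccl2 was at 1.39. Cre+ replicate 3 carried neutrophil markers of 5262 CPM, against 1033 to 1200 CPM in the other peak libraries, and monocyte markers of 675 CPM against 78.2 to 116 CPM. Without it, Ccl2 stood at 1.74 and Ccl9 at 0.54 (adjusted p = 0.0279), and Ccl12 was called (0.64, adjusted p = 0.0405). Without Cre- replicate 1 (0.43, adjusted p = 0.0791) or replicate 2 (0.48, adjusted p = 0.0652), Ccl9 was not called.

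The second set of comparisons followed the chemokines into demyelination within each genotype. In both genotypes all 8 members rose from the naive to the demyelination state, with the steepest rise in Ccl5 and Ccl6. In Cre- microglia 8 of 8 were called higher, where 19.7% of genes were called higher and 16.2% lower, and in Cre+ microglia 8 of 8 against 26.3% higher and 25.9% lower. The members' medians were 1.69 in Cre- and 2.88 in Cre+ microglia (log2), against 0.04 and 0.01 over all genes.

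Ccl5 rose 25.3-fold in Cre- (4.66 ± 0.31, edgeR adjusted p = 7.72e-12) and 57.6-fold in Cre+ microglia (5.85 ± 0.35, adjusted p = 3.34e-13), from under 2 CPM to the values given above. Ccl6 rose 6.15-fold in Cre- (2.62 ± 0.21, adjusted p = 2.81e-09) and 26.3-fold in Cre+ microglia (4.72 ± 0.23, adjusted p = 4.68e-13). Ccl3 rose by 1.66 ± 0.29 in Cre- and by 3.33 ± 0.31 in Cre+ microglia. Ccl4 rose by 1.93 ± 0.25 and 3.56 ± 0.27, which is 11.8-fold in Cre+ microglia. Both rose from a lower naive level in Cre+ libraries to overlapping levels in demyelination. Of the monocyte attractants, Ccl12 rose by 1.02 ± 0.17, Ccl7 by 1.73 ± 0.35 and Ccl2 by 0.56 ± 0.19 (adjusted p = 0.0265) in Cre- microglia, the last being the smallest rise of the 8. In Cre+ microglia they rose by 2.43 ± 0.18, 2.22 ± 0.36 and 1.83 ± 0.19.
Ccl9 rose by 0.75 ± 0.13 in Cre- and 1.64 ± 0.13 in Cre+ microglia. Over all genes, the change to demyelination fell with exon length (Spearman -0.170 in Cre- and -0.283 in Cre+ microglia, 11812 genes), and the members are short. The rises of Ccl2 (0.01, adjusted p = 0.98) and Ccl12 (0.38, adjusted p = 0.157) in Cre- microglia were lost with GC content and length corrected. That of Ccl2 was also lost without demyelination Cre- replicate 1 (0.47, adjusted p = 0.108) or 2 (0.55, adjusted p = 0.0632) or naive Cre- replicate 2 (0.40, adjusted p = 0.141). Without the low-Cx3cr1 libraries, 1 demyelination Cre+ library was left in this comparison. The 8 differences in Cre+ microglia then ran from 1.58 (Ccl9) to 5.51 (Ccl5), with Ccl12 at 1.87.
Markers of other cells rose beside the chemokines. Of 9 monocyte markers 8 were higher in Cre- and 5 in Cre+ microglia and 0 lower, and their sum went from 38.0 to 83.6 CPM in naive Cre- to 221 to 359 CPM in demyelination. All 9 border-associated macrophage markers were higher in both genotypes, while of 12 microglia markers 11 were lower in Cre- and 9 in Cre+ microglia. The T, NK and B cell markers, relevant to Ccl5, summed to 0.0936 to 0.823 CPM in the naive and to 4.88 to 7.14 CPM in the demyelination libraries. The part of these cells in the rise was not tested.

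The difference between the genotypes in this change was tested itself. It passed for 6 of 8 members, all with the larger rise in Cre+ microglia, where 15.8% of all genes passed in either direction. Ccl6 differed most (2.10 ± 0.28, edgeR adjusted p = 0.0001), then Ccl3 (1.66 ± 0.40, adjusted p = 0.0091), Ccl4 (1.63 ± 0.35, adjusted p = 0.00483), Ccl12 (1.42 ± 0.24, adjusted p = 0.000637), Ccl2 (1.27 ± 0.27, adjusted p = 0.00353) and Ccl9 (0.89 ± 0.18, adjusted p = 0.00202). For Ccl5 (1.19 ± 0.48, adjusted p = 0.0884) and Ccl7 (0.49, adjusted p = 0.568) no difference was called. Over all genes, this difference fell with exon length (Spearman -0.301 over 11812 genes), and the members are short. With GC content and length corrected, the 6 members were still called. Without the low-Cx3cr1 libraries, 1 demyelination Cre+ library was left. The differences were then 2.30 for Ccl6, 1.89 for Ccl3, 1.77 for Ccl4, 1.06 for Ccl2, 0.87 for Ccl12 and 0.85 for Ccl9. The members reached the larger rise in Cre+ microglia from opposite sides. Ccl3, Ccl4 and Ccl6 were called lower in naive Cre+ microglia and not called in demyelination. Ccl2, Ccl9 and Ccl12 were not called in the naive state and were called higher in demyelination.

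**Figure D3:**
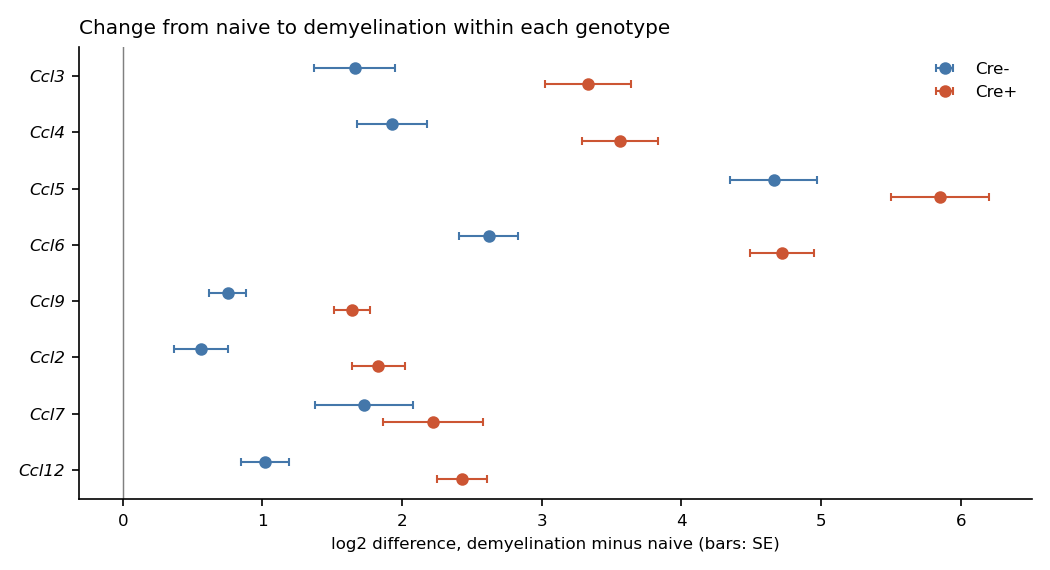
Fitted log2 difference of demyelination minus naive for each member, Cre- and Cre+ microglia in separate colours, with bars of 1 SE. All 16 points lie right of 0, and for each member the Cre+ point lies right of the Cre- point, from 2.22 against 1.73 for Ccl7 to 4.72 against 2.62 for Ccl6.

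The third set followed the members from demyelination to remyelination. These comparisons share the demyelination libraries with those above and with each other, so their values are given side by side and are not separate evidence. From demyelination to start, 7 of 8 members fell in Cre- microglia (26.3% of genes called higher and 28.3% lower) and 8 of 8 fell in Cre+ microglia (32.5% and 30.8%). From demyelination to peak, 8 of 8 fell in Cre- microglia (28.7% and 29.9%) and 7 of 8 in Cre+ microglia (30.1% and 28.6%). The members' medians were -1.61 and -2.70 at start and -2.39 and -2.90 at peak (Cre- and Cre+, log2), against 0.06, 0.12, 0.07 and 0.11 over all genes. Markers of other cells moved with the state here too. To start, 6 (Cre-) and 7 (Cre+) of 9 border-associated macrophage markers and 5 of 6 astrocyte markers in each genotype were higher, as were 5 (Cre-) and 2 (Cre+) of the 5 oligodendrocyte markers that passed the filter. To peak, 6 of 9 monocyte markers were lower in Cre- microglia, and 2 were higher and 2 lower in Cre+ microglia. Their part in the falls was not tested. Without the low-Cx3cr1 libraries, 8 of 8 members to start and 7 of 8 to peak were still called lower in Cre+ microglia.

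Ccl6 had the largest change in each of these 4 comparisons, -3.19 ± 0.21 (Cre-) and -4.06 ± 0.22 (Cre+) to start and -3.72 ± 0.22 and -4.58 ± 0.23 to peak. Ccl5 was close behind it in Cre- microglia to peak, and changed by -2.64 and -2.91 to start and -3.71 and -3.86 to peak. Ccl3 changed by -1.28 ± 0.28 in Cre- and -2.55 ± 0.30 in Cre+ microglia to start, and by -2.72 ± 0.30 and -3.49 ± 0.31 to peak. Each of these was called. In the same order, the changes of Ccl4 were -1.61, -2.55, -2.95 and -3.34, those of Ccl9 -1.81, -2.85, -2.06 and -2.24 and those of Ccl12 -1.61, -2.91, -1.80 and -2.46. Ccl2 changed by -0.60 ± 0.20 in Cre- microglia to start (edgeR adjusted p = 0.0148), where Cre+ microglia changed by -2.41 ± 0.20. That Cre- call was lost with upper-quartile scaling (-0.44, adjusted p = 0.0552) and without demyelination Cre- replicate 1 (-0.49, adjusted p = 0.0698) or start Cre- replicate 3 (-0.50, adjusted p = 0.0749). To peak, Ccl2 changed by -1.46 ± 0.21 and -1.41 ± 0.19.
Ccl7 was the exception: it was not called in Cre- microglia to start (-0.32 ± 0.35, adjusted p = 0.444) nor in Cre+ microglia to peak (-0.05 ± 0.34, adjusted p = 0.909), and changed by -1.05 ± 0.35 (Cre+ to start, adjusted p = 0.012) and -1.07 ± 0.36 (Cre- to peak, adjusted p = 0.0136) otherwise. The last was lost without demyelination Cre- replicate 1 (adjusted p = 0.051) or peak Cre- replicate 2 (-0.72, adjusted p = 0.0984).
Over all genes, these differences rose with exon length (Spearman 0.347 to 0.390 over 11812 genes), and depth and naming set move with the state. With GC content and length corrected, Ccl2 was no longer called in Cre- to start (0.17, adjusted p = 0.518) or Cre+ to peak (-0.39, adjusted p = 0.106), and Ccl7 in Cre+ to peak became a rise (1.03, adjusted p = 0.0163). Ccl7 was then not called in Cre- to peak (-0.17, adjusted p = 0.714) or Cre+ to start (0.01).

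The genotype effect itself differed between demyelination and start for 3 of 8 members (3.74% of all genes): Ccl2 (-1.81 ± 0.28, edgeR adjusted p = 0.00505), Ccl12 (-1.30 ± 0.24, adjusted p = 0.00864) and Ccl9 (-1.04 ± 0.18, adjusted p = 0.0066), each called higher in Cre+ microglia in demyelination and not called at start. Without the low-Cx3cr1 libraries none of these was called (-1.50, -0.79 and -0.86, adjusted p of 0.0616, 0.134 and 0.0856), and with GC content and length corrected Ccl12 was not (-1.02, adjusted p = 0.0636). Between start and peak, which differ in the timing of tamoxifen and in naming set (the effects of which cannot be told apart), it differed for 2 of 8 members (3.77% of all genes): Ccl2 by 1.86 ± 0.29 (edgeR adjusted p = 0.00119) and Ccl9 by 0.86 ± 0.19 (adjusted p = 0.00825). Both were called higher in Cre+ microglia at peak and not called at start. Ccl7 (1.74 ± 0.52, adjusted p = 0.0587) and Ccl12 (0.65 ± 0.24, adjusted p = 0.142) missed the threshold, and Ccl3, Ccl4, Ccl5 and Ccl6 were at 0.51, 0.55, 0.13 and 0.01.

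Ccl3 and Ccl4 were set against the monocyte attractants Ccl2 and Ccl12, and were lower relative to them in Cre+ than in Cre- libraries of all 4 states. The difference of their mean log2 CPM was 3.13 to 3.36 in naive Cre- and 1.36 to 1.61 in naive Cre+ libraries. In demyelination it was 4.15 to 4.30 against 2.51 to 3.33, at start 3.47 to 4.39 against 2.77 to 3.06, and at peak 2.68 to 3.34 against 1.20 to 1.39. The genotypes thus did not overlap in any state, although Ccl3 and Ccl4 were the genes called in the naive state and Ccl2 and Ccl12 those called in demyelination. With Ccl7 added to the monocyte attractants the ranges were 4.69 to 5.08 against 3.00 to 3.89, 5.54 to 5.55 against 4.31 to 4.91, 4.61 to 5.34 against 3.96 to 4.27 and 3.75 to 4.80 against 2.27 to 2.53, again apart in each state. These scores are over chosen members and carry no test.

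**Figure D4:**
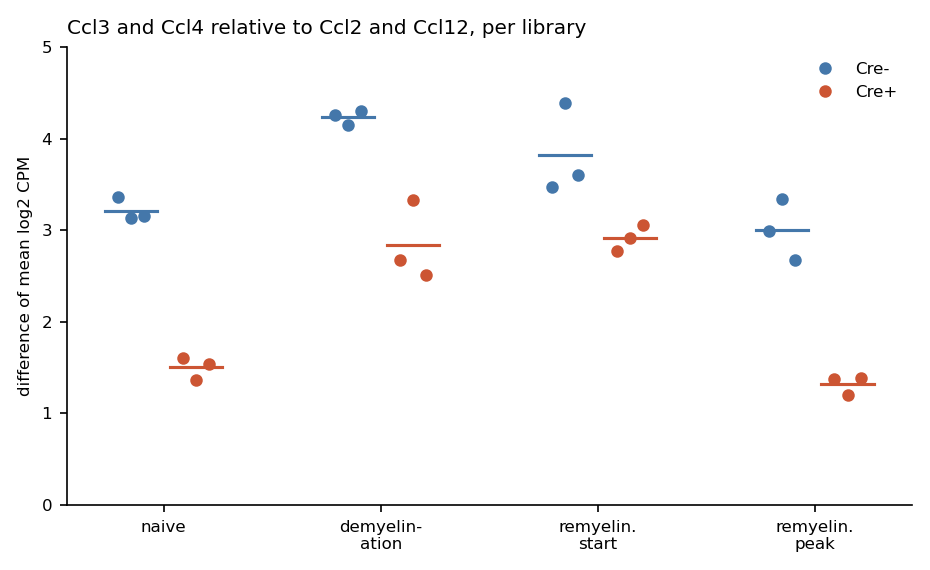
Mean log2 CPM of Ccl3 and Ccl4 minus that of Ccl2 and Ccl12 in each library, by state on the horizontal axis and by genotype in colour. Every Cre+ library lies below every Cre- library of its state, with the lowest values, 1.20 to 1.39, in the peak Cre+ group.

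Of 3 pairs examined within the family, Ccl3 and Ccl4 had the narrowest range of ratios. The ratio of Ccl4 to Ccl3 CPM (not corrected for length) stayed between 0.869 and 1.51 over all 24 libraries, while Ccl3 ranged from 110 to 1847 and Ccl4 from 137 to 2077 CPM. It was higher in all Cre+ than in all Cre- libraries at start (1.11 to 1.23 against 0.884 to 0.942) and at peak (1.13 to 1.51 against 0.930 to 1.00), and overlapped in the other states. The ratio of Ccl12 to Ccl2 ran from 1.67 to 5.97, and that of Ccl6 to Ccl9 from 0.359 to 5.14. The last was 1.22 to 1.44 in naive Cre- but 0.359 to 0.532 in naive Cre+ libraries. Among 10535 genes with a mean log2 CPM of at least 2, the pattern most like that of Ccl3 over the 24 libraries was that of Ccl4 (Pearson 0.990 on log2 CPM), followed by Ftl1 (0.971), Rasgef1b (0.968), Nfkbia (0.963) and Cd83 (0.963). Nfkbia codes for an NF-kB inhibitor and Cd83 for a surface protein of activated myeloid and dendritic cells. The genes most like Ccl2 were Smc4 (0.918), Ero1l (0.916), Cdk1 (0.891), Stmn1 (0.890) and Cks2 (0.890). Smc4, Cdk1 and Cks2 act in mitosis. The libraries share states, so these correlations are descriptions.

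The receptors of these ligands were lower in Cre+ microglia where they were called. In the naive state 3 of the 8 receptors that passed the filter (of 13 counted here) were lower and 0 higher, beside 13.7% and 14.7% of all genes, and in demyelination 1 was lower and 0 higher, beside 3.48% and 5.69%, whereas at start and peak none was called. Ccr1, the receptor of Ccl3, Ccl5, Ccl6 and Ccl9, had 36.2, 35.5 and 30.3 CPM in naive Cre- and 0.983, 4.40 and 3.04 CPM in naive Cre+ libraries. That was the largest difference among the receptors, -3.52 ± 0.39 (edgeR adjusted p = 5.93e-06). In demyelination Ccr1 was at -1.02 ± 0.34 (adjusted p = 0.0749). Its differences without the low-Cx3cr1 libraries were -3.20 in the naive state (edgeR adjusted p = 6.34e-10) and -0.51 in demyelination, with 1 Cre+ library left there.
Ccr2, the receptor of Ccl2, Ccl7 and Ccl12 and a marker of monocytes, had 11.9, 11.6 and 13.4 against 6.60, 7.93 and 6.73 CPM in the naive state (-0.79 ± 0.29, adjusted p = 0.0462). In demyelination it had 31.4, 57.0 and 56.1 against 24.3, 13.9 and 10.4 CPM (-1.56 ± 0.27, adjusted p = 0.00196). So its Cre+ libraries were low in the state in which Ccl2 and Ccl12 were high, but also in the naive state, where neither was called. The summed CPM of the 9 monocyte markers went the other way in demyelination, at 774, 471 and 539 CPM in Cre+ against 221, 359 and 308 CPM in Cre- libraries. The median difference of these markers was lower, like Ccr2, at -1.22 (log2). Itga4 and Vcan among them were called lower, like Ccr2, and Fn1 higher. Without the low-Cx3cr1 libraries Ccr2 was at -0.77 (edgeR adjusted p = 0.0433) in the naive state and at -1.75 in demyelination, with 1 Cre+ library left there. Ccr3, a receptor of Ccl5 and Ccl7, was lower in the naive state as well (-2.17 ± 0.52, adjusted p = 0.0029, and -1.83 without the low-Cx3cr1 library).

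**Figure D5:**
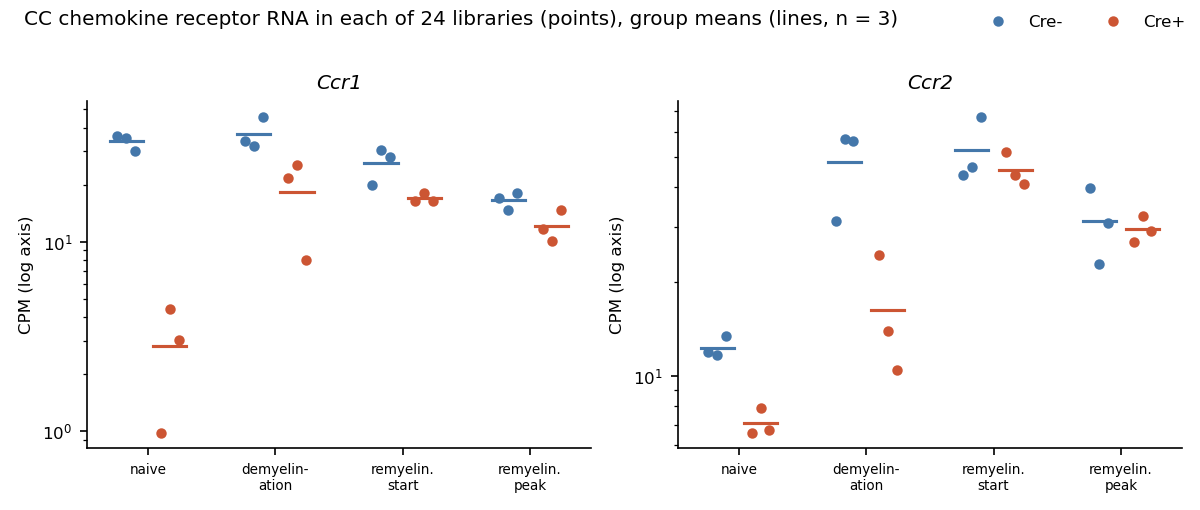
CPM of Ccr1 and Ccr2 (log axis) in every library, by state and genotype; points are libraries and short bars are group means. Ccr1 lies lower in all naive Cre+ than in all naive Cre- libraries, and Ccr2 lies lower in all demyelination Cre+ libraries than in all demyelination Cre- libraries.

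Lists of related genes gave calls in both directions. Their counts stand beside 14.7% of all genes called higher and 13.7% lower in the naive state, 5.69% and 3.48% in demyelination and 6.99% and 4.02% at peak. Of 13 other CC chemokines 5 passed the filter. In the naive state 2 of them were lower in Cre+ microglia, Ccl24 (-3.08 ± 0.33, edgeR adjusted p = 3.64e-07), an eosinophil attractant, and Ccl27a (-0.92, adjusted p = 0.0296), which has near-identical copies that could split its reads. Among 22 NF-kB factors and rapid targets, 4 were higher and 4 lower in naive Cre+ microglia, shares near those of all genes, including Nfkb1 (0.52) and, lower, Tnf (-1.11 ± 0.26), Nfkbiz (-1.38 ± 0.22) and Nfkbie (-0.67). In demyelination 2 were higher and 4 lower, with Cd40 at 2.06 and Nfkbie again at -0.67, and at peak 2 higher and 2 lower. Of 8 factors that bind AU-rich messages, 4 were higher and 1 lower in naive Cre+ microglia, among them Khsrp (1.61) and Hnrnpd (1.96), which can promote decay, and Elavl1 (0.72), which stabilises messages. None of the 8 was called in demyelination or at peak.

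Among 16 interferon-induced genes, 1 was higher and 6 lower in naive Cre+ microglia, such as Mx1 (-1.21), Ifit1 (-1.29) and Cxcl10 (-1.32). In demyelination 7 were higher and 0 lower, such as Ifi44 (1.92), Rsad2 (0.94) and Isg15 (0.62), and at peak Mx1 alone was called, lower (-0.60). Of 20 genes of the disease-associated microglia programme, 0 were higher and 14 lower in naive Cre+ microglia, such as Apoe (-1.95), Cd63 (-1.49) and Ctsb (-0.88). In demyelination 3 were higher and 1 lower, with Cst7 at 1.28 and Apoe at -0.69, and at peak 0 were higher and 7 lower. All 20 rose from naive to demyelination in both genotypes, beside the 8 chemokines. Of 16 immediate-early and stress genes, 2 were higher and 4 lower in naive Cre+ microglia. The 2 were Hspa1b (2.73) and Hspa1a (2.69), near-identical copies of each other, and Junb (-0.88) and Jun (-0.72) were among the lower. In demyelination 2 were higher and 1 lower, and at peak 2 higher and 0 lower. Hspa1b and Hspa1a, heat-shock genes that also respond to tissue dissociation, were the higher ones there as well, at 1.93 and 2.01 in demyelination and 1.06 and 1.13 at peak, the states in which Ccl2 was higher, and their part in that was not tested. They were, without the low-Cx3cr1 libraries, at 0.65 and 0.61 in demyelination, in a fit with a single Cre+ library. At remyelination start no gene of any of these lists was called.
Without the low-Cx3cr1 libraries, the naive counts (higher and lower) were 3 and 4 for the NF-kB list, 4 and 0 for the AU-rich factors, 0 and 6 for the interferon genes, 0 and 13 for the disease-associated genes and 2 and 4 for the immediate-early and stress genes. Over all genes, that fit called 2080 higher and 2068 lower of 18027 in the naive state. In demyelination, with 1 Cre+ library left, the median differences of these 5 lists were -0.12, -0.15, 0.18, 0.19 and -0.31 (log2, same order). The median over all genes was 0.02 there.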

How the data were processed

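Raw gene counts, as deposited by the authors, were used for 24 libraries (RNA by RNeasy Mini, ultra-low input kit, per the labels' protocols). The submitters' processing notes name Trimmomatic 0.36, STAR 2.5.2b, Subread 1.5.2 (featureCounts), DESeq2 and GRCm38; for strandedness and reads with several matches the setting was not given in the sources used here. Genes were kept with filterByExpr over the 8 groups (17579 of 49315), scaled by TMM and fitted with group means in edgeR 4.0.16 (quasi-likelihood, robust, 16 residual degrees of freedom, R 4.3.3), with Benjamini-Hochberg adjustment over all genes tested and a threshold of 0.05. Depth was 8873275 to 44526670 counts per library. Log2 CPM used a prior count of 1; lengths and positions came from GENCODE M21, which held 49056 of the gene IDs (259 had no match). Levels were ordered between genes per kilobase; ratios of CPM were read only across libraries. The fit was tested on simulated data.

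The members and lists were chosen with earlier results of these data known. The genes named outside the 8 members are, per comparison, up to 4 called genes of each list with the smallest p, and the 5 genes most like Ccl3 and Ccl2. Marker groups and seed matches followed fixed lists. The AU-rich counts were added after the values were seen. Alternatives were DESeq2 1.42.0, upper-quartile scaling, no low-count filter, only the groups compared, a replicate block, a GC content and length correction, leaving out the 3 low-Cx3cr1 libraries, and leaving out each replicate. Equal replicate numbers are not stated to mark shared litters or days. The labels give no sex, age or litter. No pair of libraries within a group was a duplicate. One gene of the receptor list is not reported here.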

Additional observations from a re-analysis of the deposited data

Results flagged for a closer look

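In 11 cases a member's genotype difference, or its change with state, differed between groups by a test of that difference itself (an interaction term in edgeR's quasi-likelihood fit, Benjamini-Hochberg adjusted over all genes). Between the naive and the demyelination state, the genotype effect shifted upward by 1.27 for Ccl2, 1.66 for Ccl3, 1.63 for Ccl4, 2.10 for Ccl6, 0.89 for Ccl9 and 1.42 for Ccl12 (log2). Between demyelination and remyelination start it shifted downward by -1.81 for Ccl2, -1.04 for Ccl9 and -1.30 for Ccl12. Between start and peak it shifted upward by 1.86 for Ccl2 and 0.86 for Ccl9. The shifts from naive and to start share the demyelination libraries, and those to start and from start to peak share the start libraries, so they are not separate evidence.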

How the results depend on the processing

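Of 1448 results for single members under an alternative, 1361 kept their direction and their side of the threshold, 27 lost a call, 28 gained one and 32 changed sign, and 54 of the 67 called results were called in every alternative. The number of members called in demyelination fell from 3 to 1 without the 3 low-Cx3cr1 libraries, and that for the shift from demyelination to start from 3 to 0, while DESeq2 gave 5 there. At start the count rose from 0 to 1 with DESeq2 and with only the groups compared. It rose at peak from 3 to 5 with DESeq2, and for the shift from start to peak from 2 to 4 without a filter. DESeq2 called 2173 of 17578 genes at peak, and the fit without a filter 899 of 39562 for that shift. For the runs that left out each replicate, all-gene counts are not given beside those of the members. Leaving out each replicate gave 4 to 5 members in the naive state, 3 in demyelination, 0 at start and 1 to 4 at peak; 7 to 8 (Cre-) and 8 (Cre+) from naive to demyelination; 6 to 7 and 8 to start and 7 to 8 and 7 to peak; and 6, 3 and 2 to 3 for the shifts in genotype effect.

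Same-numbered libraries did not deviate together in all pairs (correlations from -0.018 to 0.032 in demyelination and 0.063 to 0.281 at peak), although in the naive and peak states each Cre+ library correlated best with its own number, a hint from the data and not the design. With the replicate block, 5 members were called in the naive state, 3 in demyelination, 0 at start and 4 at peak. The genes called by that fit were, in the same order, 4902, 1562, 7 and 1957 of 17579.

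Over all genes, the count called at start rose from 6 to 45 (DESeq2), 81 (no filter) and 40 (only the groups compared). For the shift to start it went from 657 to 1245, 1026 and 1062 in the same order and to 44 without the 3 libraries, which also took demyelination from 1612 to 81 and the shift from naive from 2769 to 1625. Upper-quartile scaling moved the higher and lower calls from 2580 and 2402 to 2131 and 3104 in the naive state, from 1228 and 707 to 921 and 991 at peak, from 4628 and 4981 to 5723 and 4075 (Cre-) and 5709 and 5423 to 7137 and 4428 (Cre+) to start, from 5043 and 5249 to 6306 and 4310 in Cre- to peak, and for the shifts from 1401 and 1368 to 1799 and 1153, 140 and 517 to 190 and 329, and 505 and 157 to 290 and 261. It moved the median of all genes from 0.06 to 0.21 (Cre-) and 0.12 to 0.34 (Cre+) to start and from 0.07 to 0.24 and 0.11 to 0.22 to peak. DESeq2 gave 17 higher and 28 lower at start and 1997 and 1214 for the shift from naive, the GC content and length correction 193 and 384 and 399 and 233 for the later shifts, and 2766 and 4288 in place of 3459 and 2850 from naive to demyelination in Cre-, with all-gene medians of -0.10 (Cre-) and -0.12 (Cre+).

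Signs changed as follows, in log2 differences, and the cause was not tested. In demyelination, Ccl3 and Ccl4 were at 0.03 and 0.03 (DESeq2), 0.04 and 0.05 (no filter), 0.12 and 0.12 (without the 3 libraries), and ranged from -0.09 to 0.12 and -0.07 to 0.11 as each replicate was left out. With GC content and length corrected, Ccl12 was at 0.06 (naive) and 0.09 (start), Ccl2 at 0.17 (Cre- to start), and Ccl7 at 0.43 (Cre- to start), 0.01 (Cre+ to start) and 1.03 (Cre+ to peak). Ccl7 in Cre+ to peak was at 0.06 with upper-quartile scaling and -0.19 to 0.06 without 1 replicate, and in the naive state at -0.66 to 0.02 without 1 replicate. For the shift from start to peak, Ccl6 was at -0.11 (upper quartile), -0.04 (no filter), -0.05 (only the groups compared), -0.05 (replicate block), -0.12 (GC content and length) and -0.34 to 0.20 without 1 replicate, and Ccl5 at -0.22 to 0.41 without 1 replicate. Counting error limits members at a few CPM, as Ccl5 outside demyelination and Ccl7 in the naive state and in peak Cre-.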
